A study of Mus musculus with 4 samples.

Results

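The genes described here are the replication-dependent histone genes, which make the bulk histones of dividing cells. They were taken from a mouse RefSeq table (assembly GRCm38.p6) as the autosomal protein-coding genes whose symbols begin with H1f1 to H1f6, or with H2ac, H2bc, H3c or H4c followed by a digit. This rule found 63 of 20665 autosomal protein-coding genes. Of these, 53 lie in the Hist1 cluster on chromosome 13 and 10 in the Hist2 cluster on chromosome 3, and by class there were 6 H1, 17 H2A, 16 H2B, 12 H3 and 12 H4 genes. Another 4 histone genes on chromosomes 6 and 11 have symbols outside this rule, so they are not members. All but H3f4 are listed under a former Hist3 or Hist4 name. Of these 4, H4f16 had a peak in WT replicate 2, H2aw had one in WT replicate 2 and miR-187 replicate 1, and H2bu2 and H3f4 had none.

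Core histones H2A, H2B, H3 and H4 form the nucleosome, and the linker histone H1 binds the DNA where it enters and leaves that particle. Cells make these proteins from many small, intronless gene copies that are transcribed together in S phase under the coactivator NPAT, in a nuclear compartment called the histone locus body. Most of their mRNAs end in a stem loop instead of a poly(A) tail, and H2A and H2B genes often sit head to head with a short shared control region between them.

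Accessibility was measured by ATAC-seq, in which a transposase inserts sequencing adapters into open DNA, in 2 wild-type (WT) and 2 miR-187 libraries from hearts of newborn mice. In the miR-187 mice, the study's methods place a single extra copy of mouse miR-187 at the Rosa26 locus under the endothelial Tek (Tie2) promoter, on a C57BL/6J background that WT mice share. The study gives the compared ATAC-seq genotypes as wild type and homozygous knock-in. The study states that the profiled cells were cardiac endothelial cells captured with CD31 beads, while the labels give the tissue as heart. Nothing says whether the replicates of a group came from separate animals, so their spread may be technical. Values for the 4 libraries are given in the order WT 1, WT 2, miR-187 1, miR-187 2. Of 10 endothelial marker genes, 2, 3, 2 and 1 had a peak, and Pecam1, which encodes CD31, had none, where 21.8%, 31.2%, 20.3% and 3.18% of all autosomal protein-coding genes had one, so that in the first 3 libraries the endothelial genes were not above other genes; of 10 cardiomyocyte genes 2 had a peak in WT replicate 1 and none elsewhere; of 6 fibroblast genes 2, 4, 0 and 0 (33.3% and 66.7% in WT) had one; and of 4 smooth muscle, 4 immune and 4 erythroid genes none had one. The part that other cells play in the values below was not tested.

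A histone gene was counted when the summit of a called peak lay within 1 kb of either end of the gene, here called a boundary peak. The 4 lists were unequal. On the standard chromosomes, the WT lists held 9452 and 12298 peaks and the miR-187 lists 7496 and 1483. The background read density implied by the peak values was 1751, 5227, 2016 and 1032 reads per Mb. miR-187 replicate 2 was therefore both the shallowest library and the one with the fewest peaks. A gene without a listed peak was below the calling threshold in that library and is not thereby shown to be closed.

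Sequences are shown for the control regions on which the results below turn, from RefSeq on GRCm38.p6, 5′ to 3′. Capitals mark exact matches, on either strand, to 4 short motifs known from histone promoters. These are the CCAAT box (CCAAT), the TATA box (TATAAA), the octamer bound by Oct1 (ATTTGCAT) and the H1 box (AAACACA), and none of the 4 contains another. The first 5 entries each cover the whole stretch between the inner boundaries of a neighbouring H2A and H2B gene. They show the pair with a peak in 3 libraries, a pair shared by WT replicate 2 with miR-187 replicate 1, 2 pairs with strong peaks in both WT lists, and the pair with a peak in miR-187 replicate 1 alone. The last 3 are the 250 bases before the start of an H1, an H3 and an H4 gene with a peak there.
H2ac22/H2bc22 (chr13:21787249-21787482, plus strand): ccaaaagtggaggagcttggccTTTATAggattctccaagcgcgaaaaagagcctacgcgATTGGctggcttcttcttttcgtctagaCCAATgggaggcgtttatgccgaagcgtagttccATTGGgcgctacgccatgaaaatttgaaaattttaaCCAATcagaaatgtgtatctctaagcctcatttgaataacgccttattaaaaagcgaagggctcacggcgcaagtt
H2ac15/H2bc15 (chr13:21753913-21754075, plus strand): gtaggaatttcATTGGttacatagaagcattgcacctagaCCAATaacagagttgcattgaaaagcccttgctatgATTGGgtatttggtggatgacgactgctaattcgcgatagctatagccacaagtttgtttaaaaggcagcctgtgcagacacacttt
H2ac12/H2bc12 (chr13:22035644-22035820, plus strand): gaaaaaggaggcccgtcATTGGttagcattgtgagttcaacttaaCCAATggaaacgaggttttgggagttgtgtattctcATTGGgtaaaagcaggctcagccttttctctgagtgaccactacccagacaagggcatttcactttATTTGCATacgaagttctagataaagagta
H2ac6/H2bc4 (chr13:23683960-23684198, plus strand): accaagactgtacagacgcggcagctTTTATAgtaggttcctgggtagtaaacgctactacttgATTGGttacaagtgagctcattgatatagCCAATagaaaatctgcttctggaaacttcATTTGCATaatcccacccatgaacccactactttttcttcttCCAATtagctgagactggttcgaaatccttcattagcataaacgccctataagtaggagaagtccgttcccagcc
H2ac8/H2bc8 (chr13:23571221-23571399, plus strand): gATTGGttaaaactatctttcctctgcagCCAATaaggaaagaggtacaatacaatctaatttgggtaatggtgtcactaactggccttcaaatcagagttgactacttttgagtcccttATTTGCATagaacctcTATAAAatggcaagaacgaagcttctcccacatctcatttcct
H1f2 (chr13:23738557-23738806, plus strand): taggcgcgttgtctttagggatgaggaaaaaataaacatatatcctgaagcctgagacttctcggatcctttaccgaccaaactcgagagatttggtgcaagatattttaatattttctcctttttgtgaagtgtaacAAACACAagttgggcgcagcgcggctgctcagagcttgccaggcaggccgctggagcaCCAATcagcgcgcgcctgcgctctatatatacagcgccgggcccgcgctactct
H3c6 (chr13:23562386-23562635, minus strand): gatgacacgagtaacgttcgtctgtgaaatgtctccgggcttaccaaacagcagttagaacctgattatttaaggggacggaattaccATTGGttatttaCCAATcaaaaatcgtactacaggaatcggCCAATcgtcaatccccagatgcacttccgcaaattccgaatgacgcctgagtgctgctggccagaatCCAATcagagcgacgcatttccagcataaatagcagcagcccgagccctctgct
H4c4 (chr13:23581318-23581567, plus strand): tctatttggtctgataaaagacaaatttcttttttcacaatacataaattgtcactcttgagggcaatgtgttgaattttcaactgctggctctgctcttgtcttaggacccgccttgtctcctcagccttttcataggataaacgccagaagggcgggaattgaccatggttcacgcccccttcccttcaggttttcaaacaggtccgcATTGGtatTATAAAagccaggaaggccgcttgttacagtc

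The motifs were counted by histone class, without a test. A motif copy in the stretch between a facing H2A and H2B gene could be counted for both genes. In the 250 bases before the start, CCAAT was found in 48 of the 58 histone genes with a promoter entry (82.8%), against 36.2% of 16457 autosomal protein-coding genes. All 6 H1, 17 H2A and 14 H2B promoters held it, as did 8 of 10 H3 but 3 of 11 H4 promoters. TATAAA was present in 28 (48.3%, against 12.5%), at 40% to 66.7% of each class. The octamer was present in 12 (20.7%, against 1.63%), of which 6 were H2A and 6 were H2B genes. The H1 box was present in 9 (15.5%, against 5.54%), including 5 of 6 H1 genes. Histone genes with a boundary peak in any library were set beside those with none, without a test. CCAAT was found in 85.7% of 35 genes with a peak and 78.3% of 23 without, TATAAA in 42.9% and 56.5%, the octamer in 22.9% and 17.4%, and the H1 box in 11.4% and 21.7%. Among the sequences above, H2ac12/H2bc12, H2ac8/H2bc8 and H2ac6/H2bc4 hold the octamer, TATAAA occurs in H2ac22/H2bc22, H2ac6/H2bc4, H2ac8/H2bc8 and H4c4, and each holds CCAAT. H3c7, H2bc4, H3c1, H2bc21 and H4c14 had no promoter entry.

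The main comparison asked how many histone genes had a boundary peak in each group. The WT libraries had 21 and 32 such genes, and the miR-187 libraries 12 and 0. Both WT counts lay above both miR-187 counts. WT libraries averaged 26.5 ± 7.78 genes and miR-187 libraries 6 ± 8.49 (SD, n = 2 each). The miR-187 mean was thus different by -20.5 genes. The 2-sided exact permutation p was 0.333, the smallest that 6 assignments of the libraries allow. The genes were chosen with earlier results of these data known, so no conclusion is drawn from this or later permutation p values. This gene difference was -11.5 at a −log10 q minimum of 5, -7.23 after thinning and -7.5 with equal numbers of peaks. Because neighbours can share a peak, the distinct peaks behind these genes were fewer, at 16, 25, 8 and 0, of which 7, 11, 4 and 0 served more than 1 gene. Counted once each, they averaged 20.5 ± 6.36 for WT and 4 ± 5.66 for miR-187 (SD, n = 2 each; difference -16.5, exact permutation p = 0.333). That difference was -8.5 at a −log10 q minimum of 5, -5.40 after thinning and -4.5 with equal numbers of peaks.

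The shares were then set against all autosomal protein-coding genes. In WT replicate 1, 33.3% of histone genes had a boundary peak (95% Wilson interval 22.9 to 45.6), where 21.8% of all genes did. For WT replicate 2 the share was 50.8% (38.8 to 62.7), where 31.2% of all genes had one. Counted this way, both WT intervals lay above the share of all genes, but they treat genes that share a peak as independent. With each peak given to its nearest gene alone, the shares were 23.8% (15.0 to 35.6) and 33.3% (22.9 to 45.6) in WT, against 18.7% and 27% of all genes, and both intervals included the share of all genes. miR-187 replicate 1 had 19.0% (11.2 to 30.4), with 20.3% over all genes, and miR-187 replicate 2 had 0% (0 to 5.75), with 3.18% over all genes. Neither miR-187 interval excluded the share of all genes, so the absence of histone genes in miR-187 replicate 2 was not detectable as a difference from other genes at this depth. The intervals cover counting error only, those of WT replicate 1 and miR-187 replicate 1 overlap, and whether the excess differs between WT and miR-187 was not tested.

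WT replicate 1 and miR-187 replicate 1 are the libraries closest in background read density. Their shares over all genes were 21.8% and 20.3%, and their histone genes numbered 21 and 12, of which 6 were shared. A single library on each side gives this contrast no replicate check. Averaged over the 4 libraries, the excess over all genes was 6.66 points, or 1.01 with each peak given to its nearest gene alone. When a peak had to overlap the gene body, 23.8%, 39.7%, 11.1% and 0% of histone genes had one, against 27.4%, 36.6%, 23.9% and 4.48% of all genes, and the mean excess turned to -4.43 points. Against the 1385 genes of at most 1 kb, as short as most histone genes, the shares to compare were 2.67%, 3.75%, 1.95% and 0.217%, but 58 of those 1385 are histone genes themselves and they supplied 18 of 37, 29 of 52, 10 of 27 and 0 of 3 calls.

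**Figure D1:**
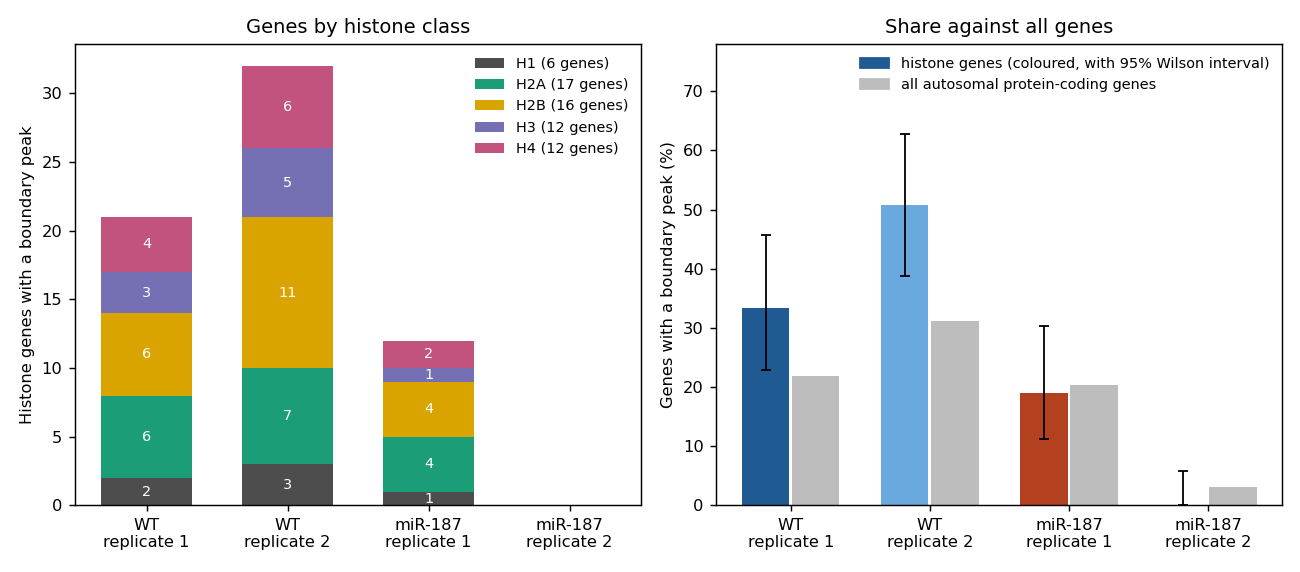
Left, number of histone genes with a boundary peak in each library, stacked by histone class; right, share of the 63 histone genes (coloured bars, with 95% Wilson intervals) and of all autosomal protein-coding genes (grey) with a boundary peak, in percent. Histone genes reached 33.3% and 50.8% in the WT lists and 19.0% and 0% in the miR-187 lists, against 21.8%, 31.2%, 20.3% and 3.18% for all genes.

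All classes of core histone and the linker histones contributed to the counts. Of the 6 H1 genes, 2, 3, 1 and 0 had a peak. The 17 H2A genes gave 6, 7, 4 and 0, and the 16 H2B genes 6, 11, 4 and 0. H3 genes, 12 in all, gave 3, 5, 1 and 0, and the 12 H4 genes gave 4, 6, 2 and 0. In each class both WT counts were higher than both miR-187 counts, an order that all autosomal protein-coding genes shared. Over the 4 libraries, 39 of 63 genes had a peak in at least 1 list (39.5% of all genes did), made up of 3 H1, 11 H2A, 12 H2B, 5 H3 and 8 H4 genes.

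By position, the genes fell into 5 blocks separated by more than 100 kb. The 29 genes of the largest block on chromosome 13 had a peak at 9, 15, 5 and 0 genes, and the 17 genes of the first block at 3, 9, 5 and 0. Over all genes the shares were 21.8%, 31.2%, 20.3% and 3.18%. In the first block, WT replicate 1 and miR-187 replicate 2 lay below them, and WT replicate 2 and miR-187 replicate 1 above them. These gaps rest on few genes and were not tested. In miR-187 replicate 1, H2ac15 shares its peak with H2bc15, and H2ac22 with H2bc22. A small block of 5 genes (H2ac12, H2bc12, H4c9, H2ac11 and H2bc11) had 4 genes with a peak in each WT list and 0 in each miR-187 list, where 6.01% of all genes had a peak in both WT and neither miR-187 library. These 4 genes rest on 2 shared peaks in each WT list. H2bc1 and H2ac1, the pair that encodes testis histones, stand apart in a block of 2 and had no peak in any library. On chromosome 3, the 10 Hist2 genes gave 5, 4, 2 and 0. Hist1 as a whole gave 16, 28, 10 and 0, or 22 ± 8.49 for WT and 5 ± 7.07 for miR-187 (SD, n = 2 each; difference -17, exact permutation p = 0.333); that difference was -11 without WT replicate 2, -6 with equal numbers of peaks and -5.99 after thinning. In the same interval, 3, 2, 3 and 0 of 51 protein-coding genes that are not histones had a boundary peak (5.88%, 3.92%, 5.88% and 0%), below the shares of all genes, and 3, 6, 5 and 0 of 77 tRNA genes did. Of the 53 Hist1 genes, 16, 28, 10 and 0 had one, but neighbours among them can share a peak, and the contrast was not tested.

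**Figure D2:**
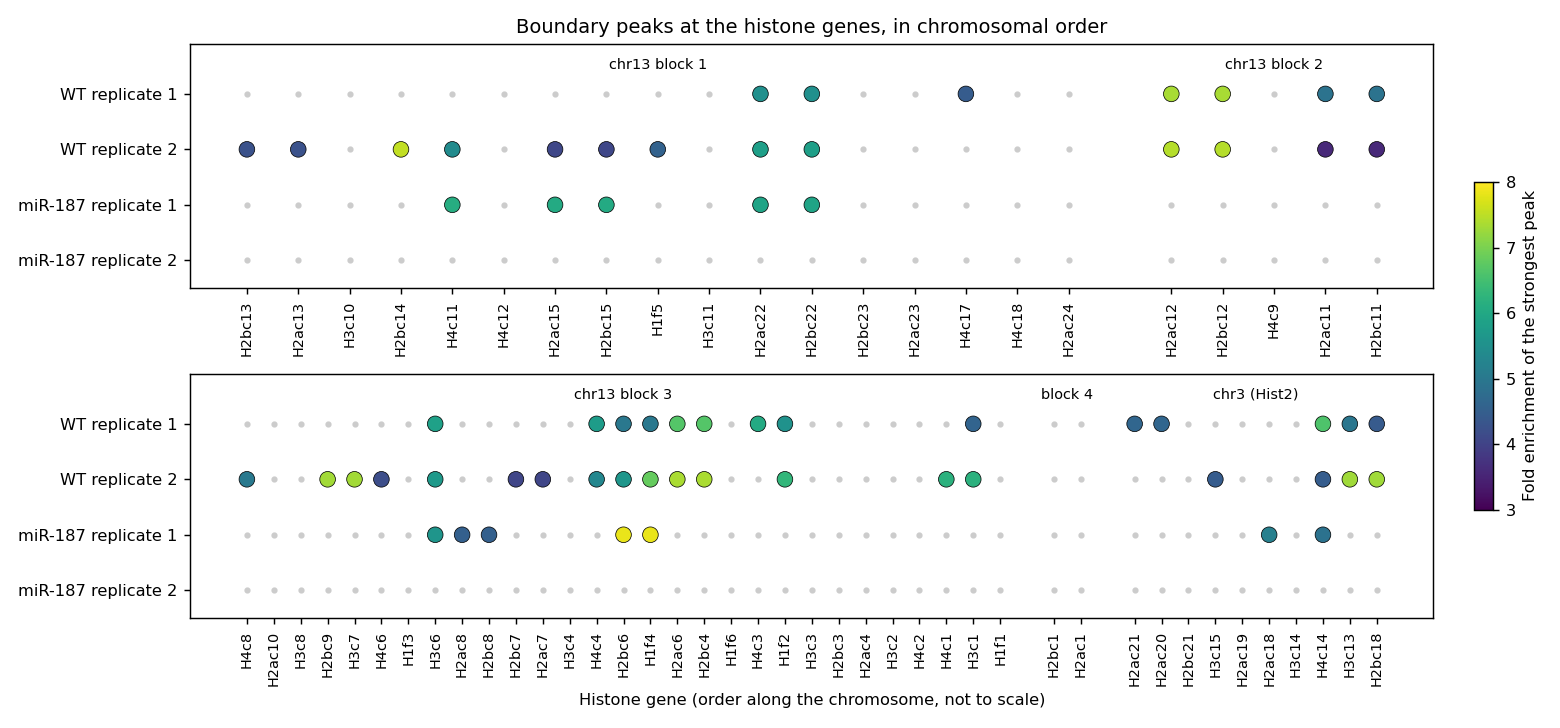
Boundary peaks at the 63 histone genes in chromosomal order (horizontal, not to scale) in each of the 4 libraries (vertical); a large dot is a called peak, coloured by the fold enrichment of the strongest peak at that gene, and a small grey dot is no listed peak. WT replicates 1 and 2 have 21 and 32 large dots, miR-187 replicate 1 has 12 and miR-187 replicate 2 has none; neighbouring dots of one colour can be 1 shared peak.

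The genes fell into few patterns across the lists. The most widely shared was that of 6 genes, H2ac22, H2bc22, H3c6, H2bc6, H1f4 and H4c14, each with a peak in both WT libraries and miR-187 replicate 1. That is 9.52% of the histone genes, against 8.71% of all genes with this same pattern. In all, 11.0% of all genes had a peak in at least 3 libraries. No histone gene had a peak in all 4 libraries (1.36% of all genes did), a count fixed at 0 because miR-187 replicate 2 had none. The planned comparison of fold enrichment at genes found in every library could therefore not be run. A peak in both miR-187 and in neither WT library was likewise fixed at 0 genes (0.0677% of all genes). A peak in both WT and in neither miR-187 library was found at 11 genes (17.5%, against 6.01% of all genes). The 17 histone genes shared by the WT lists thus included 11 absent from the miR-187 lists (64.7%), compared with 1241 of 3417 such genes over the genome (36.3%). In miR-187 replicate 1 alone, the same 11 of 17 lacked a peak, where 39.1% of the 3417 did. The count of 11 depended on the lists and peaks used. The 11 genes rest on 9 distinct peaks in WT replicate 1 and 8 in WT replicate 2. A −log10 q minimum of 5 left 4 such genes (6.35%, against 2.29% of all genes), as did equal numbers of peaks (against 0.760%). Gene bodies left 7 (11.1%, against 7.21%), as did nearest genes alone (against 5.15%), and thinning left an expected 2.88 (4.57%, against 1.38%). Leaving out WT replicate 1 made it 23, and leaving out miR-187 replicate 1 made it 17. A further 12 genes had a peak in WT replicate 2 alone (19.0%, against 8.34% of all genes), 4 in WT replicate 1 alone (6.35%, against 3.61% of all genes) and 3 in miR-187 replicate 1 alone (4.76%, against 2.65%). Another 3 joined WT replicate 2 with miR-187 replicate 1 (4.76%, against 5.48%).

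Replicates of the WT group shared histone genes about as often as they shared other genes. Of the 21 genes of WT replicate 1, 17 were also in WT replicate 2 (81.0%, against 75.7% over all genes), and these were 53.1% of the 32 genes of WT replicate 2 (53.0% over all genes). Of the 12 genes of miR-187 replicate 1, 6 were in WT replicate 1 (50%, against 57.5%) and 9 in WT replicate 2 (75%, against 78.8%). Seen from the WT side, 6 of 21 genes of WT replicate 1 (28.6%, against 53.4%) and 9 of 32 of WT replicate 2 (28.1%, against 51.2%) were found again in miR-187 replicate 1. Genes that share a peak are counted separately here. The 21, 32 and 12 genes rest on 16, 25 and 8 distinct peaks, and these contrasts were not tested.

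H2A and H2B proteins pair as dimers in the nucleosome, and 11 pairs of their genes stood as close neighbours, 163 to 280 bp apart. In 9 of these pairs the promoter table gives both starts, which face each other. For H2bc4 and H2bc21 it gives none, so the boundary nearest the H2A gene was used in their 2 pairs. Peaks at these pairs numbered 4, 7, 3 and 0, at 8 of the 11 pairs in all. The summit lay between the inner boundaries in 13 of the 14 cases. H2ac22/H2bc22, whose 234 bp are printed above, was the only pair with a peak in 3 libraries, at a fold enrichment over background of 5.49 and 5.80 in WT and 5.91 in miR-187 replicate 1, with a −log10 q of 3.68, 6.22 and 4.60. These 3 fold values lie close together, but fold adds 1 to reads and background, so it depends on depth, which differed between the libraries. The peaks had an inferred 8, 15 and 10 reads at the summit, over a local background of 0.64, 1.76 and 0.86. H2ac12/H2bc12, with the octamer, had the strongest histone peak of WT replicate 1 (fold 7.34, −log10 q 7.64) and one of the strongest of WT replicate 2 (fold 7.45, −log10 q 10.3), and no peak in either miR-187 list. H2ac6/H2bc4 showed the same pattern at fold 6.67 and 7.37 (−log10 q 5.67 and 11.0), and in WT replicate 2 its summit lay inside the annotated H2bc4.

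The other pairs had peaks in at most 2 lists. H2ac11/H2bc11 had fold 4.90 and 3.57 in WT replicates 1 and 2, the latter the lowest of any histone peak. H2ac15/H2bc15 had a peak at fold 4.06 in WT replicate 2 and 6.04 in miR-187 replicate 1, H2bc13/H2ac13 and H2bc7/H2ac7 in WT replicate 2 alone (4.26 and 4.05), and H2ac8/H2bc8 in miR-187 replicate 1 alone (4.50). H2bc23/H2ac23, H2ac20/H2bc21 and the testis pair had no shared peak. Outside the pairs, H2bc14 had one of the stronger peaks of WT replicate 2 (fold 7.54, −log10 q 9.71) 43 bp before its start, and none elsewhere. On chromosome 3, H2ac21 and H2ac20 shared a weak peak in WT replicate 1 (fold 4.64), and H2ac18 had one in miR-187 replicate 1 (fold 5.15).

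**Figure D3:**
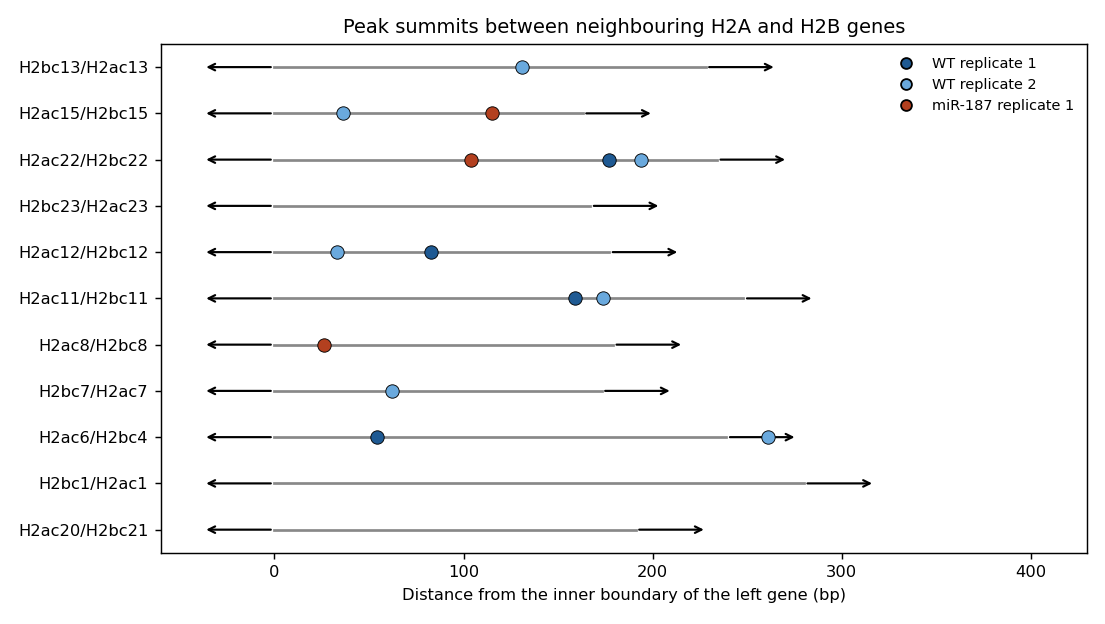
Positions of peak summits (dots, coloured by library) between the genes of the 11 neighbouring H2A and H2B pairs, in bp from the inner boundary of the left gene; the grey line spans the gap between the inner boundaries and arrows point into the genes. Dots fall on the grey line in 13 of 14 cases, and miR-187 replicate 2 has none.

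Linker histone genes had a peak at 2, 3, 1 and 0 of 6 genes, where 21.8%, 31.2%, 20.3% and 3.18% of all genes did. H1f2 had a summit 4 bp before its start in WT replicate 1 (fold 5.56, −log10 q 4.30) and 15 bp before it in WT replicate 2 (fold 6.29, −log10 q 8.59), with a second, weaker peak past its 3′ end in both lists, and no peak in the miR-187 lists. Around H1f4, the peak found in 3 libraries (fold 5.0 and 5.62 in WT, 7.84 in miR-187 replicate 1) lay 79, 96 and 106 bp beyond its 3′ end, between it and its neighbour H2bc6, 574, 557 and 547 bp from the annotated boundary of H2bc6. At fold 7.84 and −log10 q 8.43 it was the strongest histone peak of miR-187 replicate 1. A peak at the start of H1f4 itself was listed only in WT replicate 2 (fold 6.82, −log10 q 10.5). H1f5 had 2 peaks in WT replicate 2, at fold 4.55 and 4.19. H1f1, H1f3 and H1f6, the last a testis gene, had none.

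Of the H3 and H4 genes, whose proteins form the core of the nucleosome, H3c6 and H4c14 had a peak in 3 libraries. H3c6 had fold 5.85 and 5.68 in WT and 5.61 in miR-187 replicate 1, with the summit 36 bp after the start in WT replicate 1 and 190 and 40 bp before it in the other two. H4c14 had fold 6.60 and 4.46 in WT and 4.88 in miR-187 replicate 1, so the miR-187 value lay between the WT values. In both WT lists and in no miR-187 list, H4c4 had fold 5.75 and 5.31 with the summit 90 and 121 bp before the start. H3c13 and H2bc18 shared a peak with fold 4.41 in WT replicate 1 and 7.28 in WT replicate 2, which lay at the start of H2bc18, and H3c13 had a further peak 66 bp before its own start in WT replicate 1 (fold 4.95). The highest −log10 q of any histone peak, 11.3 at fold 6.20, was between H4c1 and H3c1 in WT replicate 2; WT replicate 1 had a separate peak 41 bp outside H3c1 (fold 4.58).

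The remaining H3 and H4 peaks were found in 1 list or in a WT and a miR-187 list. H4c11 was listed with fold 5.38 in WT replicate 2 and 6.12 in miR-187 replicate 1, 734 and 553 bp before its start. H4c3 had one at fold 6.03 in WT replicate 1. In WT replicate 2, H3c7 shared a peak with H2bc9 (fold 7.31), and H4c8, H4c6 and H3c15 had peaks at fold 5.03, 4.19 and 4.44; 1 of the 2 peaks of H4c8 also lay within 1 kb of a tRNA gene. H4c17 had the weakest member peak of WT replicate 1 by −log10 q (2.33). No peak was listed for H2ac1, H2ac4, H2ac10, H2ac19, H2ac23, H2ac24, H2bc1, H2bc3, H2bc21, H2bc23, H3c2, H3c3, H3c4, H3c8, H3c10, H3c11, H3c14, H4c2, H4c9, H4c12 or H4c18. Of the 58 promoters, 6 were at least 90% identical to that of another histone gene, against a median of 65% for the closest match, and reads at such copies could be split or dropped in mapping. These were H4c17 and H4c18 (99.3%), H3c14 and H3c15 (94.7%) and H4c11 and H4c12 (91.7%). In each of these pairs 1 copy had a peak and the other had none. The summits lay 701 bp (H4c17) and 1080 bp (H3c15) after the start, and 734 and 553 bp before it (H4c11). These positions lie outside the compared promoters, and how alike the copies are there was not measured. Whether mapping explains the copies without a peak was not tested.

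Peaks at histone genes had strengths near those of other boundary peaks. Their median −log10 q was 3.52 in WT replicate 1, 5.40 in WT replicate 2 and 4.41 in miR-187 replicate 1, where all boundary peaks had 3.86, 5.31 and 4.25. They rested on few reads, with an inferred 5 to 15, 10 to 28 and 9 to 15 at the summit in these 3 libraries. Of 45 distinct peaks at a gene whose start is known, the summit was within 250 bp of the nearest such start in 29 (64.4%), with a median position 61 bp before it.

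Expected counts were also obtained after thinning the reads of each peak to the background density of miR-187 replicate 2. This matches that density alone, and the thinned lists still held 5481, 2287, 4268 and 1483 peaks. The histone genes then numbered 13.2, 8.78, 7.54 and 0, so that the group difference shrank from -20.5 to -7.23. As shares these were 21.0%, 13.9%, 12% and 0%, against 14.0%, 7.12%, 12.3% and 3.18% of all genes treated alike. By the same interval the WT shares reached from 12.7% to 32.5% and from 7.46% to 24.6%. In WT replicate 1 the interval included the share of all genes, and in WT replicate 2 its lower end lay just above it. These intervals treat expected counts as observed ones and genes that share a peak as independent. The 8.78 genes of WT replicate 2 rest on 6.01 expected distinct peaks, so no excess is read from its interval. Without miR-187 replicate 2 the thinned difference was -3.46 genes. Taking the same number of peaks from each list, the 1483 with the highest −log10 q, left 5, 12, 2 and 0 histone genes, a difference of -7.5. As shares these were 7.94%, 19.0%, 3.17% and 0%, against 4.88%, 5.83%, 4.99% and 3.18% of all genes, so the widest gap was in WT replicate 2.

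**Figure D4:**
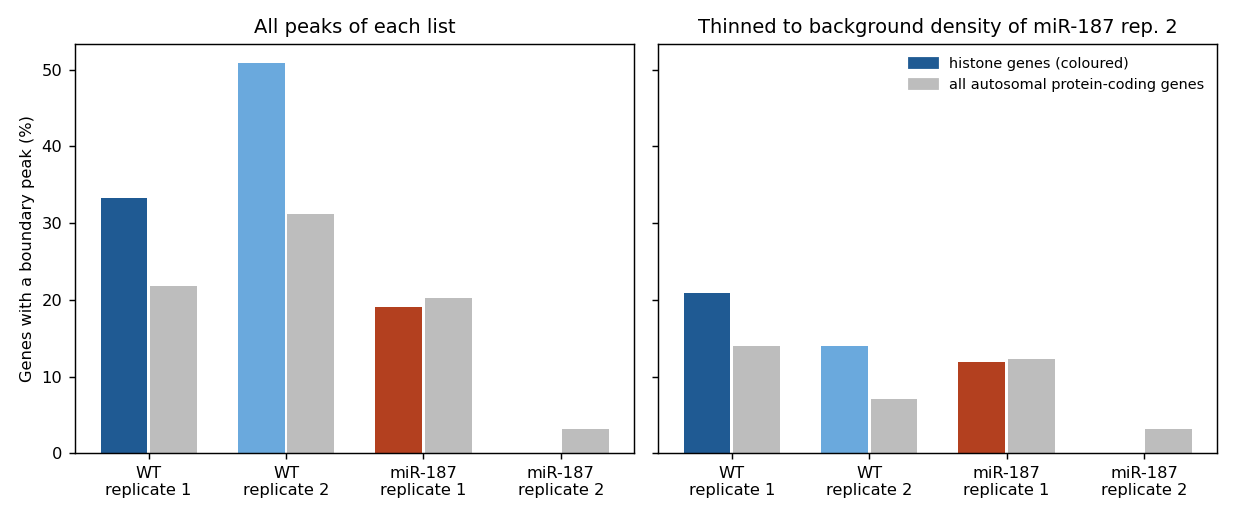
Share of histone genes (coloured) and of all autosomal protein-coding genes (grey) with a boundary peak, in percent, from all peaks of each list (left) and as calculated after thinning to the background density of miR-187 replicate 2 (right). After thinning, the shares were 21.0%, 13.9%, 12% and 0%, against 14.0%, 7.12%, 12.3% and 3.18% for all genes.

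Genes that regulate or serve the histone supply were examined as a list of 36, outside the clusters. Of these, 19, 21, 12 and 2 had a boundary peak (52.8%, 58.3%, 33.3% and 5.56%), above the shares of all genes in each library. The WT mean was 20 ± 1.41 and the miR-187 mean 7 ± 7.07 (SD, n = 2 each; difference -13, exact permutation p = 0.333), and the difference was -8 without miR-187 replicate 2, -3.72 after thinning and -1.5 with equal numbers of peaks. After thinning without WT replicate 1 it reversed, to 0.53. Among 8 genes for transcription of histone genes, 5, 7, 2 and 1 had a peak (62.5%, 87.5%, 25% and 12.5%, against 21.8%, 31.2%, 20.3% and 3.18% of all genes). Hinfp, the factor that activates H4 genes, had one in all 4 libraries (fold 5.41, 4.70, 5.21 and 4.73). Npat, the coactivator of the locus, had one in 3 (fold 6.71, 8.27 and 6.25, with none in miR-187 replicate 2). Casp8ap2, which encodes the histone locus body protein FLASH, had one in both WT lists alone (fold 7.53 and 7.62), as did Cdk2 and Yy1. Over the whole list, 5 of the 12 supply genes shared by the WT lists had no peak with miR-187 (41.7%, against 36.3% over all genes).

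Factors for the 3′ end of histone mRNA had a peak at 7, 6, 5 and 1 of 10 genes (70%, 60%, 50% and 10%). Over all genes the shares were 21.8%, 31.2%, 20.3% and 3.18%. Lsm11, a subunit of the U7 particle that directs the cut, had a peak in all 4 libraries, with fold 5.56 and 5.0 in WT and 9.05 and 5.47 in miR-187. Zfp473, a U7-associated zinc finger protein, had fold 5.73, 6.16 and 7.93 in the first 3 libraries. Slbp, which binds the stem loop, had a peak in both WT lists alone (fold 5.05 and 5.41), as did Cpsf2. Cpsf3, the cleaving enzyme, and Srrt each had one in 1 WT list and miR-187 replicate 1. Among 7 chaperone genes, 3, 4, 3 and 0 had a peak (42.9%, 57.1%, 42.9% and 0%). Hira (fold 8.19, 4.64 and 6.47) and Daxx (fold 6.25, 5.24 and 7.21), both chaperones of the variant H3.3, had one in 3 libraries, and Chaf1b, a subunit of the replication-coupled assembly factor CAF-1, in WT replicate 2 and miR-187 replicate 1. Of 11 genes for histone variants made outside S phase, 4, 4, 2 and 0 had a peak. As shares these were 36.4%, 36.4%, 18.2% and 0%, beside 21.8%, 31.2%, 20.3% and 3.18% of all genes. With 11 genes, no difference from all genes is read from them. Cenpa, the centromeric H3 variant, was listed in 3 libraries (fold 5.36, 4.17 and 4.50) and H2az1 in WT replicate 1 and miR-187 replicate 1.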

How the data were processed

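CD31 bead-captured endothelial cells of newborn hearts, as the study states, were profiled by ATAC-seq in 4 libraries (2 WT, 2 miR-187), grouped by sample title. Each library has 1 deposited narrowPeak list, called per library. The submitters' processing notes name mm10, Bowtie2 2.2.6, SAMtools 1.10, MACS2 2.2.7.1, deepTools 3.3.2 and HOMER 4.11. The deposited values are a score (the −log10 q multiplied by 10, without decimals), a ratio giving fold enrichment over local background, and a −log10 p and −log10 q, all computed by the authors' peak caller. The summit offset in bases is also as deposited.

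Histone genes and all autosomal protein-coding genes came from RefSeq GRCm38.p6, which shares its coordinates with mm10; 2 histone pseudogenes were left out. A gene had a boundary peak if a summit lay within 1000 bp of either end. The members and lists were chosen with earlier results of these data known. Read totals were not used. A whole-number pileup and background were solved from each fold and −log10 p (tolerance 0.0005), and the lowest background over a 200 bp extension gave the read density. Fold was taken as pileup plus 1 over background plus 1, so it depends on depth. Thinning kept reads binomially and summed the expected peaks still reaching the lowest −log10 p of the shallowest list; peaks not called before thinning cannot appear after it. Scripts were tested on simulated data. Group means were compared by a 2-sided exact permutation test over 6 assignments. Genes named are those with a peak in at least 3 libraries, those in both WT and neither miR-187 library or the reverse, the strongest of each cluster per library, and supply genes in at least 2 libraries; other members were named after their values were seen, to account for each. Alternatives were a −log10 q of at least 5, equal numbers of peaks, windows of 250 bp and 3 kb, start sites only, gene bodies, the nearest gene only, genes of at most 1 kb as background, thinning, leaving out each library, and a replicate block. Python 3.11.15 was used with pandas 2.3.3, numpy 2.4.6, matplotlib 3.10.9 and scipy 1.17.1.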

Additional observations from a re-analysis of the deposited data

How the results depend on the processing

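Of 113 alternative values, 74 kept their direction within a margin, 37 moved and 2 reversed. Those kept include the pattern of both miR-187 and neither WT library, fixed at 0 wherever miR-187 replicate 2 was used. The margin was 1.5 times for counts of genes in a pattern and otherwise 1 SD between libraries, which is wide here (8.14 histone genes, 6.02 peaks, 7.81 Hist1 genes, 5.10 supply genes and 10.8 points of excess). With 2 libraries per group the exact permutation test used here cannot give a p below 0.333, so stability of a call cannot be read from these tests. A −log10 q of at least 5 gave a difference of -11.5 histone genes, -8.5 distinct peaks and -6.5 supply genes, with 4 genes in both WT and neither miR-187 library. Equal numbers of peaks gave -7.5, -4.5 and -1.5, with -6 for Hist1 and also 4 such genes. Thinning gave -7.23 histone genes, -5.40 peaks, -5.99 Hist1 genes, -3.72 supply genes and 2.88 such genes. Gene bodies left 7 such genes and turned the excess over all genes to -4.43 points, and giving each peak to its nearest gene alone also left 7. The excess of 6.66 points was 3.44 at a −log10 q of at least 5, 2.82 with equal numbers of peaks, 2.56 after thinning, 1.01 with nearest genes alone, 5.43 with start sites, 7.26 and 9.70 with windows of 250 bp and 3 kb, and 23.6 against genes of at most 1 kb. Start sites alone counted the 5 genes without a promoter entry as having no peak. The causes of these shifts were not tested.

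Leaving out each library gave differences of -26.5 to -14.5 histone genes, -21 to -12 peaks, -23 to -11 Hist1 genes and -18 to -8 supply genes, 11 to 23 genes in both WT and neither miR-187 library, 0 to 3 of the reverse, and an excess of 2.35 points (without WT replicate 2) to 9.95. Leaving out each library after thinning was chosen after seeing the data. It gave -11.0 to -3.46 histone genes, -7.90 to -2.90 peaks, -9.22 to -2.75 Hist1 genes, -7.97 to 0.53 supply genes (the reversal being without WT replicate 1), 2.88 to 10.6 genes in both WT and neither miR-187 library, 0 to 4.03 of the reverse and an excess of 1.1 to 4.47 points. With the replicate block the differences are -20.5, -16.5, -17 and -13, and also under the crossed pairing. In this balanced layout neither can change a difference of means, so they are not among the values counted above. The crossed pairing was added because deviations of same-numbered libraries correlated at -0.114; the numbers are not stated to pair the libraries.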
